A study of Rattus norvegicus with 16 samples.

Results

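The endoplasmic reticulum (ER) stress genes described here are 10 genes chosen by name, Hspa5, Hsp90b1, Dnajb9, Calr, Canx, Pdia4, Herpud1, Xbp1, Atf4 and Ddit3, and all 10 were found among the 13222 genes of the expression table. They were followed in glomeruli, the filtering units of the kidney, from 16 male Wistar rats in 4 groups of 4. Rats labelled Ctl were healthy. Rats labelled PAN had received puromycin aminonucleoside (PAN) into a vein, which damages the podocytes covering the glomerular capillaries, so that much protein is lost in urine. Rats labelled PAN_Pio and PAN_GQ-16 had PAN and, by daily gavage, pioglitazone, an agonist of the nuclear receptor PPARγ, or GQ-16, a partial PPARγ agonist. The labels name a sham vehicle among the gavage treatments without saying which groups had it, and give no dose of PAN or drug and no age. Glomeruli were isolated with sieves on day 11 and their poly(A) RNA was sequenced. Podocyte and glomerular endothelial markers were read in every library, none of them at 0 reads, and so were 12 proximal tubule markers, with a mean log2(CPM + 1) of 7.58 to 9.69 under median-ratio scaling, so the preparations held tubule as well. In such bulk RNA fewer cells of a type and less RNA per cell cannot be told apart.

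Proteins for the cell surface, the basement membrane and secretion fold in the ER. When unfolded protein builds up there, the sensors IRE1, PERK and ATF6 start the unfolded protein response: IRE1 splices Xbp1 mRNA into the form that encodes an active transcription factor, PERK slows translation in general while Atf4 mRNA is translated better, and ATF6 is cut to release a transcription factor. Together these raise chaperones, folding enzymes and degradation factors, and, if stress persists, Ddit3 (CHOP), which is tied to cell death. Podocytes make large amounts of membrane and matrix protein, and ER stress has been studied in PAN injury for that reason. Gene-level counts do not separate spliced from unspliced Xbp1, or translated from untranslated Atf4.

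The element that links chaperone genes to this response is the ER stress response element (ERSE), in which the factor NF-Y holds the CCAAT end and ATF6 or spliced XBP1 the CCACG end. ERSE was itself described in the promoters of ER chaperone genes, so its presence in such genes is no independent observation, and it is shown for its sequence and position. It was searched for in RefSeq promoters of the GRCr8 assembly, 300 bases from 250 before to 50 after each gene's start, on both strands. ERSE was spelled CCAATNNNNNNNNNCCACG, and it contains the CCAAT of the Y box by construction. It was found in 21 of 27457 promoters (0.0765%) and in 5 of the 10 stress genes. The related ERSE-II, ATTGGNCCACG, was found in 15 promoters (0.0546%), Herpud1 among them. The matches are shown 5′ to 3′ in the orientation that reads CCAAT first (ATTGG first for ERSE-II), with the fixed letters in capitals.
Hspa5: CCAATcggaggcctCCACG
Hsp90b1, distal: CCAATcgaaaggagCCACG
Hsp90b1, proximal: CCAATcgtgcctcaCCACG
Xbp1: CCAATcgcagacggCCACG
Calr: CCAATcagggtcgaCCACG
Canx: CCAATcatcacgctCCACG
Herpud1: ATTGGgCCACG

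Counted from the gene start, the Hspa5 match lay at bases -43 to -25 (chr3:38452973-38452991) and the Xbp1 match at -65 to -47 (chr14:84604558-84604576). Hsp90b1 held a match at -176 to -158 (chr7:23012451-23012469) and another, on the opposite strand, at -72 to -54 (chr7:23012347-23012365). The Calr match, also on the opposite strand, lay at -232 to -214 (chr19:40213135-40213153), the Canx match at -230 to -212 (chr10:35158069-35158087) and the Herpud1 match at -124 to -114 (chr19:10614821-10614831). The letters between the fixed ends of ERSE differed in every match. Ddit3, Atf4, Pdia4 and Dnajb9 had neither spelling in this window. The unfolded protein response element TGACGTGG, in 175 promoters (0.637%), was in none of the 10. The CHOP and ATF4 element TGATGCAA, in 204 promoters (0.743%), was in Herpud1 alone, and the Y box CCAAT alone, in 37.7% of all promoters, was in 9 of the 10, Atf4 being the one without it. For 2 of the genes the 250 bases before the start are given in full, because they show the settings of the elements: in Hspa5 the ERSE near the start, and in Herpud1 the CHOP and ATF4 element (read on the opposite strand) upstream of ERSE-II, both in capitals.
Hspa5, plus strand, chr3:38452766-38453015: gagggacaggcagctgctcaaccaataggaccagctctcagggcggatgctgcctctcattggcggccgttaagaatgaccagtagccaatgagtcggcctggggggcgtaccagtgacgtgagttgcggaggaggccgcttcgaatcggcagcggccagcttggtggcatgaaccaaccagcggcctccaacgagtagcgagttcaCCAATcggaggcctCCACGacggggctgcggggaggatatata
Herpud1, minus strand, chr19:10614708-10614957: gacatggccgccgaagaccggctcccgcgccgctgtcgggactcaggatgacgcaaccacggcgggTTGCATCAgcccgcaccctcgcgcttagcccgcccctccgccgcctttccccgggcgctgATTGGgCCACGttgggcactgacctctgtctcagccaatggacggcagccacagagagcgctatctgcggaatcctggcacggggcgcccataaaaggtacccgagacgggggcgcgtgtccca

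Levels are given as CPM, reads per 1000000 reads in the listed genes. Library totals ran from 13351137 to 21977663 reads, and the smallest count of a stress gene was 227 reads (Ddit3 in the GQ-16 rat 2). The share of reads in 13 mitochondrial genes was 13.7% to 39.0% in controls, 5.83% to 10.6% in PAN, 8.61% to 19.0% with pioglitazone and 6.63% to 30.9% with GQ-16. On the deposited CPM scale 83.3% of all genes were higher in PAN than in control, with a median log2 change of 0.28 over all genes. Under median-ratio scaling, which divides each library by its median ratio to a common reference, that median was -0.0029. For PAN against control, the change of each stress gene is given on both scales.

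The levels of the general ER chaperones overlapped between PAN and control rats. Hspa5 (ENSRNOG00000018294) encodes BiP, the HSP70 of the ER, which also holds the sensors inactive. It was measured at 903, 571, 431 and 568 CPM in control rats 1 to 4 and at 1120, 813, 861 and 945 CPM in PAN rats 1 to 4. With pioglitazone it was 710, 813, 1645 and 779 CPM, and with GQ-16 983, 408, 906 and 1473 CPM. Control 1 lay among the PAN rats, and the extremes of the whole series were the GQ-16 rat 2 at the bottom and the pioglitazone rat 3 at the top. The mean was 618 ± 201 CPM for control and 935 ± 135 CPM for PAN rats (SD, n = 4 each). This gave a log2 change of 0.64 (SE 0.35) with an adjusted p of 0.166 (limma, Benjamini-Hochberg over all genes). Under median-ratio scaling the log2 change was 0.34 (adjusted p = 0.491).

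Hsp90b1 (ENSRNOG00000026963) encodes GRP94, the HSP90 of the ER. Its control rats were at 785, 472, 454 and 594 CPM and its PAN rats at 939, 729, 712 and 778 CPM. It was at 630, 674, 1137 and 751 CPM with pioglitazone and at 816, 453, 875 and 1009 CPM with GQ-16. The same rats as for Hspa5 stood out, control 1, pioglitazone 3 and GQ-16 4 upward and GQ-16 2 downward, and the groups overlapped. The log2 change in PAN was 0.48 (SE 0.25, adjusted p = 0.157), and 0.18 under median-ratio scaling. Dnajb9 (ENSRNOG00000004006) encodes ERdj4, a J-domain partner of BiP. It ranged from 20.2 to 30.4 CPM in control, 24.3 to 33.0 in PAN, 25.1 to 35.3 with pioglitazone and 20.6 to 41.4 with GQ-16. Its log2 change in PAN was 0.22 (SE 0.19, adjusted p = 0.367), under the all-gene median of 0.28, and -0.0720 under median-ratio scaling.

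Calr (ENSRNOG00000003029) and Canx (ENSRNOG00000003343) encode calreticulin and calnexin, the lectins that hold newly glycosylated proteins during folding. Calr was at 985, 604, 587 and 808 CPM in control rats and 1302, 977, 967 and 1080 CPM in PAN rats. It ranged from 774 to 1289 CPM with pioglitazone and from 618 to 1350 CPM with GQ-16. Only control 1 reached the PAN range, and the log2 change of 0.56 (SE 0.24) had an adjusted p of 0.0943, becoming 0.26 under median-ratio scaling. Canx ranged from 454 to 637 CPM in control, 610 to 718 in PAN, 593 to 729 with pioglitazone and 450 to 720 with GQ-16. Its log2 change in PAN was 0.34 (SE 0.16, adjusted p = 0.125), and 0.0364 under median-ratio scaling (adjusted p = 0.850). Pdia4 (ENSRNOG00000006228) encodes ERp72, a disulfide isomerase that makes and rearranges disulfide bonds. It was at 139, 86.0, 71.5 and 96.0 CPM in control rats and 189, 135, 132 and 129 CPM in PAN rats. PAN 1 stood well above the other PAN rats, and control 1 overlapped the PAN range. The log2 change was 0.60 (SE 0.24, adjusted p = 0.0752), and 0.30 under median-ratio scaling.

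Herpud1 (ENSRNOG00000018796) encodes a membrane protein of the complex that sends misfolded proteins from the ER to the proteasome. It was at 89.2, 62.7, 60.6 and 75.8 CPM in control rats and 93.3, 64.7, 73.9 and 132 CPM in PAN rats. It was at 65.4, 76.2, 124 and 76.8 CPM with pioglitazone and at 79.9, 51.0, 88.5 and 125 CPM with GQ-16. A single rat in each PAN-injected group, PAN 4, pioglitazone 3 and GQ-16 4, lay between 124 and 132 CPM. The others lay in the control range, except PAN 1 (93.3 CPM) above it and GQ-16 2 (51.0 CPM) below it. The log2 change in PAN was 0.30 (SE 0.27, adjusted p = 0.394), and -0.0017 under median-ratio scaling.

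**Figure D1:**
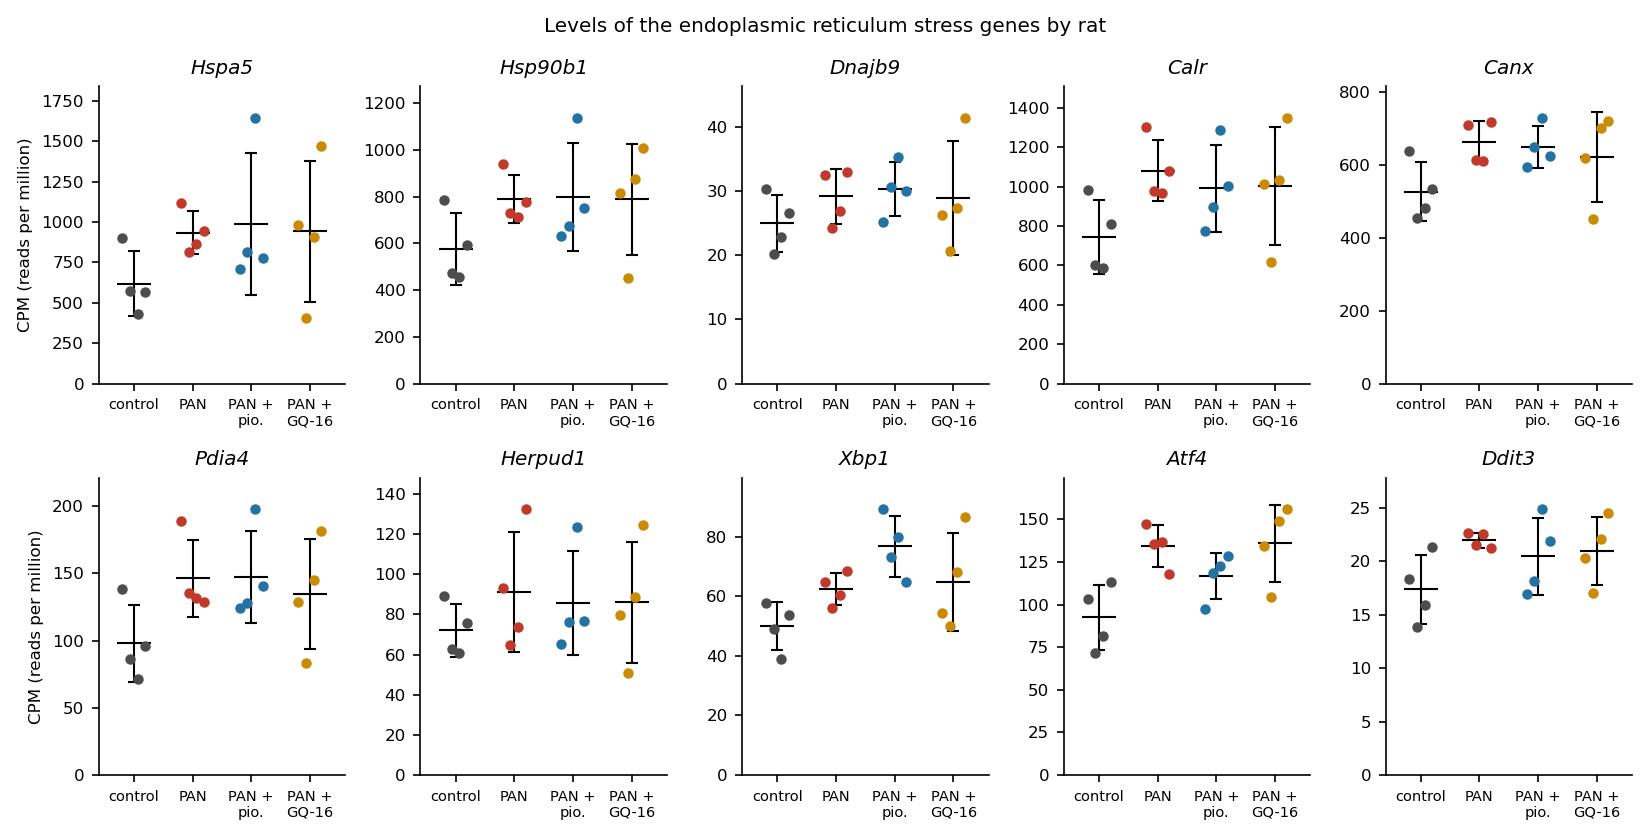
CPM (vertical axes, from 0) of the 10 ER stress genes in each of 16 rats, 4 per group, with points for rats in replicate order and black bars for the mean and SD. Atf4 is the gene in which all 4 PAN rats (118 to 147 CPM) lie above all 4 control rats (71.6 to 113 CPM), and single rats such as pioglitazone 3 and GQ-16 4 lie high in most panels.

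Among the transcription factors, Atf4 was the stress gene that rose in PAN. Atf4 (ENSRNOG00000017801) is the effector of the PERK arm, which raises amino acid supply and redox genes. It was at 103, 71.6, 81.7 and 113 CPM in control rats and at 147, 136, 137 and 118 CPM in PAN rats. With pioglitazone it was at 97.4, 118, 122 and 128 CPM, and with GQ-16 at 134, 104, 149 and 156 CPM. All 4 PAN rats were above all 4 control rats, and the means were 134 ± 12.2 against 92.4 ± 19.1 CPM. The log2 change was 0.55 (SE 0.16, 95% interval 0.22 to 0.89), or 1.47-fold, with an adjusted p of 0.0253. Under median-ratio scaling the log2 change was 0.25, the adjusted p 0.0506, and PAN 4 (112 CPM) lay below control 4 (113 CPM).

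Ddit3 (ENSRNOG00000006789) encodes CHOP, which acts downstream of ATF4 in prolonged stress. It was at 18.4, 13.9, 15.97 and 21.4 CPM in control rats and at 22.6, 21.5, 22.5 and 21.3 CPM in PAN rats. It ranged from 16.9 to 24.9 CPM with pioglitazone and from 17.0 to 24.6 CPM with GQ-16. The 4 PAN rats lay close together, between 21.3 and 22.6 CPM, and control 4 reached their range. The log2 change was 0.34 (SE 0.15, adjusted p = 0.0996), and 0.05 under median-ratio scaling. Xbp1 (ENSRNOG00000010298) encodes the factor activated by IRE1. It was at 57.8, 49.0, 39.1 and 53.7 CPM in control rats, 64.9, 56.0, 60.5 and 68.6 CPM in PAN rats, 89.2, 73.2, 79.8 and 64.9 CPM with pioglitazone and 54.4, 50, 68.0 and 86.7 CPM with GQ-16. Its highest group was pioglitazone, in which every rat was above every control rat on the deposited scale. Under median-ratio scaling they overlapped, with control 2 at 65.9 CPM and pioglitazone 4 at 57.6 CPM. In PAN against control its log2 change was 0.33 (SE 0.17, adjusted p = 0.139), and 0.0331 under median-ratio scaling.

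Set against all genes, the differences of the 10 stress genes between PAN and control were modest. All 10 had a higher mean in PAN than in control, where 83.3% of all genes did, and their log2 changes ran from 0.22 (Dnajb9) to 0.64 (Hspa5) with a median of 0.41 against 0.28 for all genes. Of the 10, 1 rose (Atf4) and 0 fell at an adjusted p under 0.05, a rate of 1 in 10 beside 22.3% of all genes called. Atf4 was also the 1 gene of the 10 whose PAN rats all lay above the controls, which held for 22.4% of all genes. Under median-ratio scaling 8 of the 10 were higher in PAN, their median log2 change was 0.11 against -0.0029 for all genes, 0 were called beside 8.63% of all genes, and 0 separated the groups beside 10.6% of all genes. At an unadjusted p under 0.05 there were 4 of the 10 on the deposited scale, beside 5562 of 13222 genes, and 1 under median-ratio scaling, beside 3505 of 13222. The 6 genes with an ERSE or ERSE-II had a median log2 change of 0.41 (0.30 to 0.64) and the 4 without 0.45 (0.22 to 0.60), so the ranges of both sets overlapped.

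**Figure D2:**
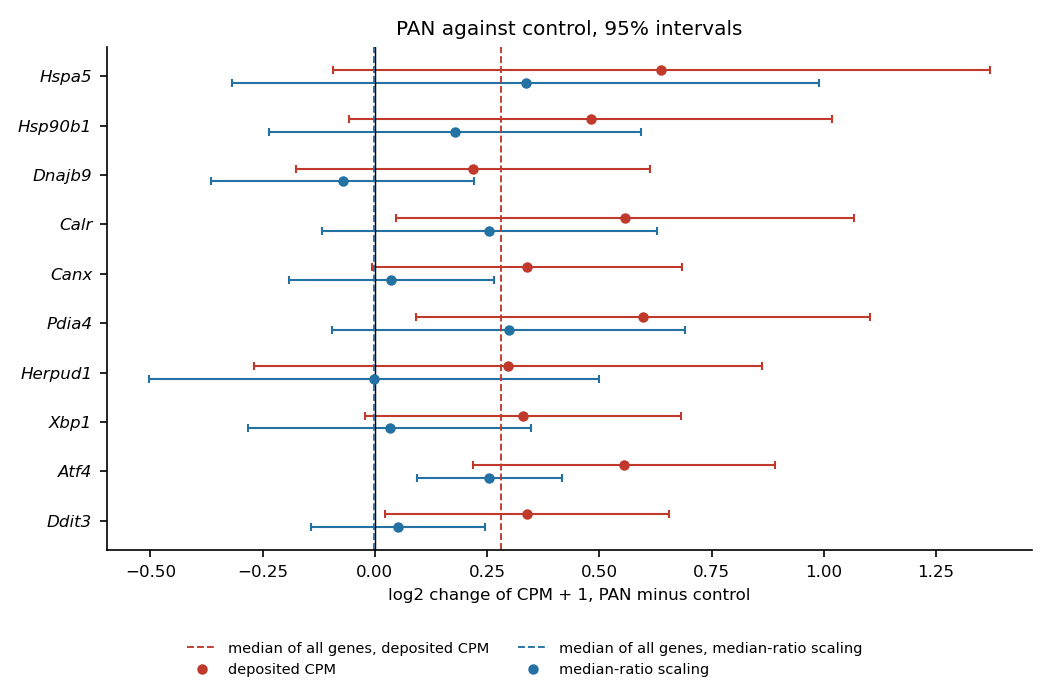
Log2 change of CPM + 1 in PAN minus control (horizontal axis) for the 10 genes, as points with 95% intervals from limma, on the deposited scale and under median-ratio scaling, with dashed lines at the median of all genes on each scale (0.28 and -0.0029). The Atf4 interval lies above 0 on both scales, and the Dnajb9 and Herpud1 points lie just under 0 under median-ratio scaling.

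The single call in PAN depended on the rats and on what was fitted. Leaving out control 2, control 3, PAN 1, PAN 2 or PAN 3 ended the Atf4 call, with a log2 change of 0.44 to 0.66 and an adjusted p of 0.0140 to 0.0989 over all 8 omissions. Leaving out control 1 brought Calr and Pdia4 past the threshold beside Atf4, and leaving out control 4 brought Ddit3. Control 1 also differed in podocyte RNA: the mean log2(CPM + 1) of 14 podocyte markers was 8.75 in control 1, 6.73 to 7.46 in the other controls and 8.23 to 8.60 in PAN (median-ratio scaling), while 5 of the 14 markers rose in PAN on the deposited scale, beside 22.3% of all genes called, and 1 under median-ratio scaling. With the podocyte mean of the deposited scale as a covariate, the median log2 change was 0.08 for the 10 stress genes and 0.08 for all genes. The log2 change of Atf4 was then 0.25 (adjusted p = 0.226), and 0 of the 10 were called, beside 5.4% of all genes. Sample names of PAN 1 to 3 carry numbers of 25 or higher and those of the controls numbers from 7 to 10. What these numbers stand for is not given in the sources used here, and with a number of 25 or higher as a covariate the Atf4 log2 change was 0.37 (adjusted p = 0.313), and 0 of the 10 were called beside 2.97% of all genes.

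Within groups, the same rats were often the highest or lowest for several of the stress genes. Under median-ratio scaling, pioglitazone 3 was the highest of its group for 9 of the 10 genes and GQ-16 4 for 10 of 10, while GQ-16 2 was the lowest of its group for 9 of 10. In the control group, control 1 was highest for 7 genes and control 3 lowest for 6. In the PAN group PAN 1 was highest for 5 and PAN 4 for 4. How many of all genes had the same highest or lowest rats was not counted. The ratio of the highest to the lowest rat for Hspa5 was 1.29 within PAN, 1.66 within control, 2.28 within pioglitazone and 2.87 within GQ-16. The pioglitazone ratio rests on rat 3 (1578 CPM on this scale), the others lying between 692 and 791 CPM.

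**Figure D3:**
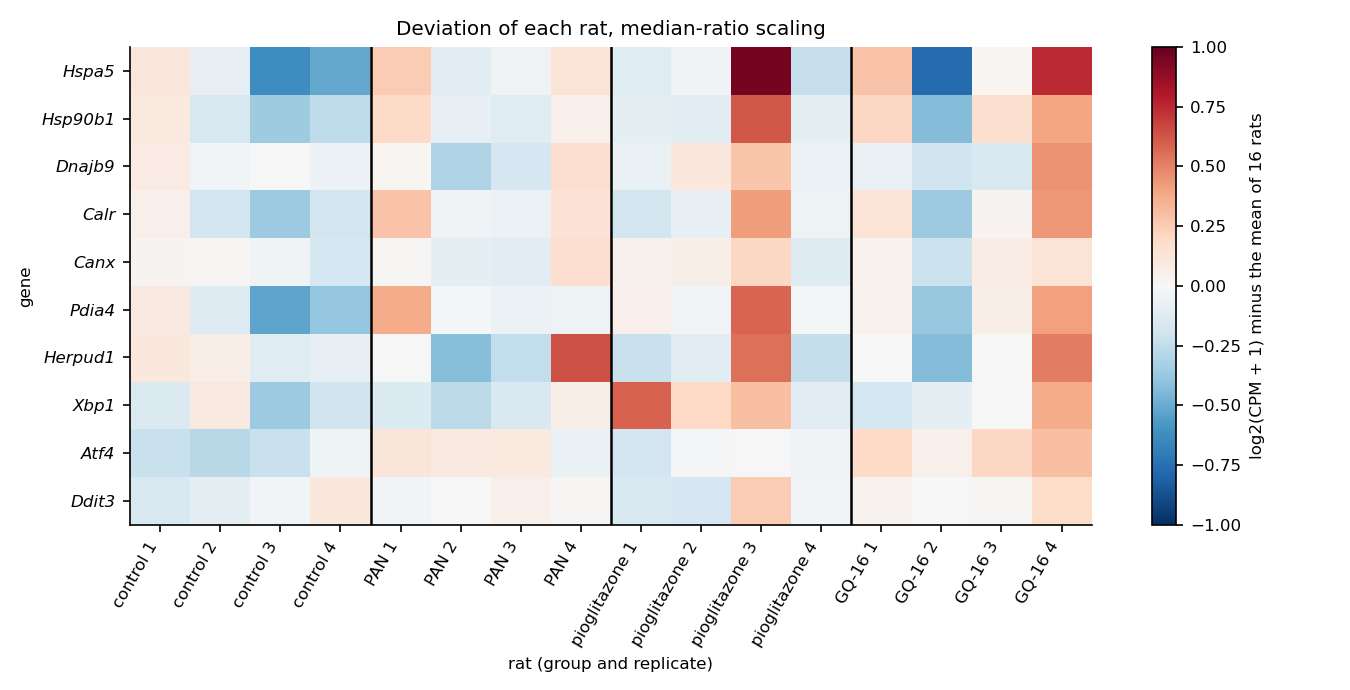
Each rat's log2(CPM + 1) minus the mean of all 16 rats under median-ratio scaling (colour, red higher and blue lower) for the 10 genes (rows), with rats in columns and black lines between groups. The column of pioglitazone 3 reaches 0.96 for Hspa5, that of GQ-16 4 is above 0 for all 10 genes, and that of GQ-16 2 reaches -0.77 for Hspa5.

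Those rats were not alike in the other values of their libraries. The pioglitazone rat 3 had 12.5% mitochondrial reads, a podocyte marker mean of 8.54 (group range 7.23 to 8.76) and a proximal tubule marker mean of 9.38, the highest of its group. The GQ-16 rat 4 had 6.63% mitochondrial reads and a podocyte marker mean of 9.17, the highest of all 16 rats, with a proximal tubule mean of 8.28. The GQ-16 rat 2, lowest for the stress genes, had 30.9% mitochondrial reads and a podocyte marker mean of 7.62, the lowest of its group. The part of these values in the stress gene levels was not tested.

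The genes differed in how far they took part in this shared variation. With the mean profile of the 10 (each centred and divided by its SD, over 16 rats that include all 4 groups), Pearson's r was 0.96 for Hspa5, 0.95 for Hsp90b1, 0.94 for Calr, 0.89 for Pdia4, 0.83 for Canx and for Herpud1 and 0.78 for Dnajb9. It was 0.59 for Ddit3, 0.56 for Xbp1 and 0.46 for Atf4, so these 3 transcription factor genes were least like a mean made mostly of the other genes. These values are descriptions, since each gene is part of the mean and all genes of a rat share its library. Outside the 10, the profiles most like the mean were those of Dnajb11 (r = 0.91), Syvn1 (0.90), Magt1 (0.89), Ddb1 (0.88) and Hyou1 (0.87). Nearest to Hspa5 were Dnajb11 (0.90), Hyou1 (0.89) and Syvn1 (0.88). Ddit3 was nearest to Mrps18b (0.72) and also near to Ero1b (0.71), and Xbp1 to Far1 (0.84), Lnpk (0.80) and Trmt10a (0.78). Ddit3 and Xbp1 had an r of 0.04 with each other, and Atf4 and Xbp1 one of -0.0072.

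The genes also differed in their spread within groups. Under median-ratio scaling, the SD of log2(CPM + 1) within groups was 0.46 for Hspa5, larger than for 83.3% of the 90 genes of like level, and 0.36 for Herpud1, larger than for 84.9% of 2073 such genes. It was 0.09 for Atf4, larger than for 14.6% of genes of like level, 0.12 for Ddit3 and 0.13 for Canx. Between these lay Hsp90b1 and Pdia4 (both 0.28), Calr (0.24), Xbp1 (0.22) and Dnajb9 (0.20), so the spread did not separate chaperones from transcription factors.

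For the stress genes, no difference between either drug group and PAN alone was called. In pioglitazone against PAN, 0 of the 10 were called, beside 0% of all genes (495 of 13222 had an unadjusted p under 0.05), and their log2 changes ran from -0.21 (Atf4) to 0.29 (Xbp1) with a median of -0.02 against -0.09 for all genes. None of the 10 reached an unadjusted p of 0.05, and the 95% intervals together spanned -0.73 to 0.73. Xbp1 was the gene farthest from PAN, with means of 76.8 ± 10.3 CPM with pioglitazone and 62.5 ± 5.45 CPM in PAN. Its log2 change of 0.29 had an unadjusted p of 0.103, and under median-ratio scaling it was 0.37 with an unadjusted p of 0.0250 and an adjusted p of 0.775.

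In GQ-16 against PAN, 0 of the 10 were called, beside 0.0151% of all genes (2 genes, with 1094 at an unadjusted p under 0.05). The log2 changes ran from -0.15 (Pdia4) to 0.02 (Xbp1), with a median of -0.09 against -0.11 for all genes, and the smallest unadjusted p was 0.506. The directions depended on the scale: 2 of the 10 were higher with GQ-16 on the deposited scale and 8 under median-ratio scaling (median 0.0366), and for pioglitazone against PAN 3 and 7 (median 0.0601). Atf4 was at 136 ± 22.8 CPM with GQ-16 and 134 ± 12.2 CPM in PAN, a log2 change of 0.0026 with a 95% interval of -0.33 to 0.34. Hspa5 had an interval of -0.85 to 0.61 in this comparison, which leaves room for a sizable fall or rise. Both drug groups are compared with the same 4 PAN rats.

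Pioglitazone and GQ-16 were also set against each other, the 1 pair of compounds in the series. Both bind PPARγ and both were given daily by gavage, and since the labels give no doses, equal dosing cannot be shown. In GQ-16 minus pioglitazone, 0 of the 10 were called, beside 0% of all genes (786 at an unadjusted p under 0.05), with log2 differences from -0.26 to 0.21 and a smallest unadjusted p of 0.13. The largest negative difference was that of Xbp1 (-0.26, 95% interval -0.62 to 0.09, 64.8 ± 16.5 against 76.8 ± 10.3 CPM), and the largest positive one that of Atf4 (0.21, 95% interval -0.13 to 0.54, 136 ± 22.8 against 117 ± 13.5 CPM). For Hspa5 the interval was -0.85 to 0.61, so neither a difference of that size nor its absence could be shown. Under median-ratio scaling Atf4 was 121 to 144 CPM with GQ-16 and 103 to 117 CPM with pioglitazone, with no overlap (1 of the 10 genes, beside 1.26% of all genes), a log2 difference of 0.25, an unadjusted p of 0.0048 and an adjusted p of 0.679.

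**Figure D4:**
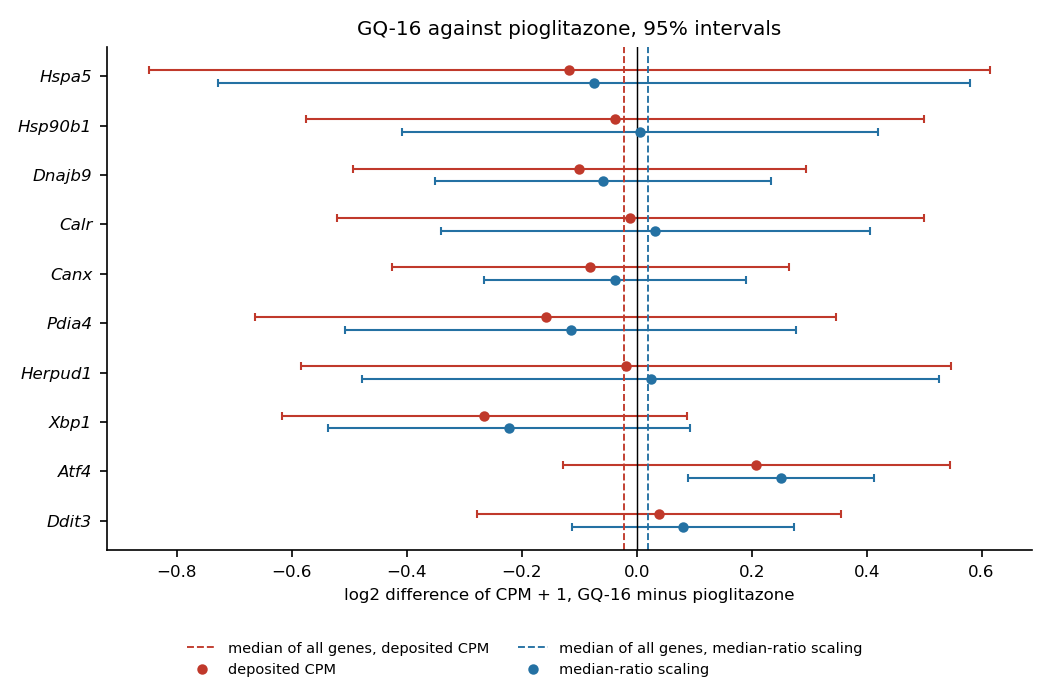
Log2 difference of CPM + 1, GQ-16 minus pioglitazone (horizontal axis), for the 10 genes, as points with 95% intervals from limma on the deposited scale and under median-ratio scaling, with dashed lines at the medians of all genes. On the deposited scale every interval includes 0, Xbp1 lies farthest to the left (-0.26) and Atf4 farthest to the right (0.21).

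Against control, the called stress genes were Xbp1 with pioglitazone and, under median-ratio scaling, Atf4 with GQ-16, while neither gene was called between the drugs. In pioglitazone against control all 10 genes were higher, as were 80.4% of all genes, with log2 changes from 0.22 to 0.64. Of the 10, 1 rose (Xbp1) and 0 fell, beside 4.98% of all genes called. Xbp1 was at 76.8 ± 10.3 CPM with pioglitazone and 49.9 ± 8.07 CPM in control, with no overlap (1 of the 10 genes, beside 13.1% of all genes). The log2 change was 0.62 (SE 0.17, adjusted p = 0.0437), or 1.53-fold. Pdia4 (0.60, unadjusted p = 0.0225, adjusted p = 0.128) and Atf4 (0.35, unadjusted p = 0.0429, adjusted p = 0.165) did not pass the adjustment. Under median-ratio scaling the Xbp1 log2 change was 0.40 with an adjusted p of 0.147, the groups overlapped, and 0 of the 10 were called beside 2.86% of all genes. The call also ended without control 2, control 3 or any 1 of the 4 pioglitazone rats (adjusted p of 0.0246 to 0.175 over all 8 omissions), and with only the libraries numbered 15 or lower (0.69, adjusted p = 0.0623).

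In GQ-16 against control all 10 genes were again higher, beside 73.2% of all genes, with log2 changes from 0.17 to 0.56. With the podocyte marker mean as a covariate 3 of the 10 were higher, beside 46.0% of all genes, with a median log2 change of -0.0390. On the deposited scale 0 of the 10 were called, beside 0.151% of all genes. Atf4 had a log2 change of 0.56 (SE 0.16, unadjusted p = 0.0029, adjusted p = 0.0964) and Xbp1 one of 0.35 (unadjusted p = 0.0497, adjusted p = 0.209). Under median-ratio scaling, where Atf4 was at 134 ± 9.38 CPM with GQ-16 and 102 ± 7.45 CPM in control, it rose, with a log2 change of 0.38 and an adjusted p of 0.0397. It was then the 1 gene of the 10 called, beside 0.741% of all genes, and the 1 gene whose groups did not overlap, beside 6.23% of all genes. With only the libraries numbered 15 or lower on the deposited scale, its log2 change was 0.49 with an adjusted p of 0.353, and without control 1 it was 0.62 with an adjusted p of 0.0348. Both comparisons use the same 4 control rats as PAN against control.

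The wider machinery of the secretory pathway was read on the same scales. Of 164 further genes of ER folding, glycosylation, transport, degradation, stress signalling and ER-linked death, 77 rose and 0 fell in PAN, beside 22.3% of all genes called, and their median log2 change was 0.44 against 0.28 for all genes. Under median-ratio scaling 28 rose and 0 fell, beside 8.63% of all genes, with a median of 0.15 against -0.0029. With the podocyte marker mean as a covariate 11 rose, beside 5.4% of all genes called, and with the library number as a covariate 3 rose, beside 2.97%. No gene of the list was called in pioglitazone against PAN, GQ-16 against PAN, GQ-16 against pioglitazone or GQ-16 against control on the deposited scale, where 2, 10, 1 and 72 of them had an unadjusted p under 0.05.

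The genes that fold collagen stood highest among the lists, counted here with the 10 stress genes in the lists they belong to. Of 17 in the table, 11 rose, beside 22.3% of all genes, with a median log2 change of 0.69. Under median-ratio scaling 6 rose, beside 8.63% of all genes, with a median of 0.39. With the podocyte marker mean 4 rose, beside 5.4% of all genes (median 0.26), and with the library number 1, beside 2.97%. Fkbp10 and Fkbp14 encode prolyl isomerases of the ER that assist collagen. Fkbp10 was at 5.95, 5.09, 4.14 and 5.50 CPM in control rats and 36.1, 15.9, 11.4 and 15.2 CPM in PAN rats, with no overlap and PAN 1 highest, and its log2 change was 1.62 (SE 0.26, adjusted p = 0.0012). Fkbp14 had a log2 change of 1.43 (SE 0.47, adjusted p = 0.0419, or 0.101 by median-ratio scaling). Its control 1 lay within the PAN range, and with the podocyte marker mean the log2 change was 0.26 (adjusted p = 0.320). Markers of other cell types differed as well: the mean log2(CPM + 1) of 16 matrix genes (collagens, laminins, Fn1 and Sparc) was 7.02 to 7.48 in control and 7.70 to 9.51 in PAN, with PAN 1 highest, and that of 9 mesangial and smooth muscle markers 4.53 to 5.48 and 6.32 to 6.94 (median-ratio scaling). On the same scale 10 distal nephron markers were at 5.56 to 6.45 in control and 4.67 to 5.50 in PAN, and 12 leukocyte markers at 4.44 to 4.76 and 4.59 to 5.82. On the deposited scale 5 of these distal nephron markers fell, beside 69 of all 13222 genes, and 7 of these leukocyte markers rose, beside 2874. Under median-ratio scaling 4 of the distal nephron markers fell, beside 198 of all genes, and 0 of the leukocyte markers rose, beside 943. The part of a change in cell types in these results was not tested.

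By the median log2 change, the enzymes of glycosylation and of disulfide bonds came next. Of 19 N-glycosylation genes 10 rose (median 0.54), beside 22.3% of all genes, and under median-ratio scaling 2 (median 0.25), beside 8.63% of all genes. Ostc (0.80, adjusted p = 0.0081) and Ddost (0.65, adjusted p = 0.0300), subunits of the oligosaccharyltransferase that attaches the glycan, had the largest rises, that of Ddost not called under median-ratio scaling (adjusted p = 0.0700). Of 16 disulfide isomerases and oxidases 6 rose (median 0.54), beside the same 22.3%, and 4 under median-ratio scaling (median 0.24), beside 8.63%. They were led by Txndc5, a disulfide isomerase (0.96, adjusted p = 0.0136), and Prdx4, the peroxiredoxin of the ER (0.89, adjusted p = 0.0014). Prdx4 was at 11.4 to 15.2 CPM in control and 20.5 to 34.7 CPM in PAN, without overlap, and it stayed past the threshold with median-ratio scaling (adjusted p = 0.0108), the library number (0.0267) and the podocyte marker mean (0.0115), but not with median-ratio scaling and the library number together (0.0989).

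Among genes of ER import and export 16 of 33 rose (median 0.46), beside 22.3% of all genes, and 6 under median-ratio scaling, beside 8.63%. The largest rises were Kdelr3 (0.90, adjusted p = 0.0059), a receptor that returns escaped chaperones to the ER, and Sec11c (0.83, adjusted p = 0.0264), a signal peptidase subunit, the latter with an adjusted p of 0.0582 under median-ratio scaling. Of 18 ER chaperones 7 rose (median 0.48), beside 22.3% of all genes, and 1 under median-ratio scaling (median 0.18), beside 8.63% of all genes. With the podocyte marker mean or the library number 0 of the 18 were called, beside 5.4% and 2.97% of all genes. Their leaders were Sil1, the nucleotide exchange factor of BiP (1.29, SE 0.43, adjusted p = 0.0438, or 0.104 by median-ratio scaling, with a log2 change of 0.23 and an adjusted p of 0.388 with the podocyte marker mean), and Sdf2l1, an ER-resident protein of chaperone complexes (0.89, adjusted p = 0.0238, or 0.0694 by median-ratio scaling). Of 21 genes of ER-associated degradation 7 rose (median 0.40), beside 22.3% of all genes, and 1 under median-ratio scaling, beside 8.63%. Selenos (0.84, adjusted p = 0.0127) and Edem2 (0.65, adjusted p = 0.0126) came first, the latter with an adjusted p of 0.0629 under median-ratio scaling.

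**Figure D5:**
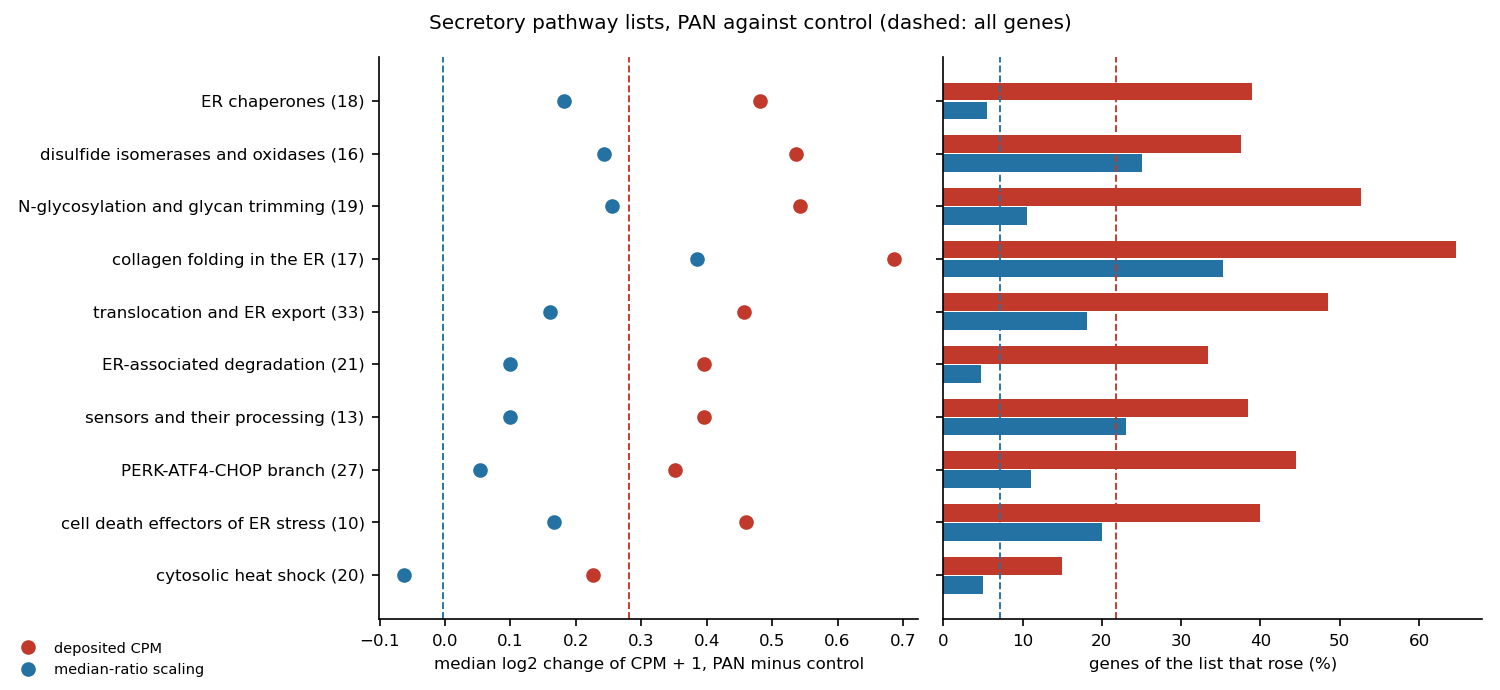
Left, median log2 change of CPM + 1 in PAN minus control for 10 gene lists (number of genes in the table in brackets) on the deposited scale and under median-ratio scaling. Right, percent of each list that rose at an adjusted p under 0.05. Dashed lines give all genes on the same scale. Collagen folding has the highest median on both scales (0.69 and 0.39) and cytosolic heat shock the lowest (0.23 and -0.06).

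Signalling, death and heat shock genes are read against 22.3% of all genes called on the deposited scale and 8.63% under median-ratio scaling. Of 13 genes of the sensors and their processing 5 rose (median 0.40) and 3 under median-ratio scaling (median 0.10). The leaders were Nfe2l1 (1.26, adjusted p = 0.0170) and Creb3l1 (1.21, adjusted p = 0.0052), which encode ER-anchored transcription factors released by cleavage rather than sensors themselves. Of 27 genes of the PERK, ATF4 and CHOP branch, Atf4 and Ddit3 included, 12 rose (median 0.35) and 3 under median-ratio scaling (median 0.05). Trib3, Chac1, Slc7a11, Gars1 and Cth of this branch were not found in the expression table and are not counted. Nupr1, a stress-induced nuclear protein, was at 12.6, 3.83, 4.21 and 15.5 CPM in control rats and 41.2, 28.1, 26.4 and 19.0 CPM in PAN rats, a log2 change of 1.72 (SE 0.43, adjusted p = 0.0136). Atf5, a transcription factor related to ATF4, had a log2 change of 1.16 (adjusted p = 0.0217). Of 10 death effectors 4 rose (median 0.46) and 2 under median-ratio scaling, among them the pore-former Bax (0.58, adjusted p = 0.0046). Bbc3, Pmaip1, Tnfrsf10b and Mcl1 of that list were not found in the expression table. Cytosolic heat shock genes, which answer to another stress pathway, rose in 3 of 20 cases (median 0.23, and -0.06 under median-ratio scaling). These were led by Cryab (1.97, adjusted p = 0.0140), a small heat shock protein, and Hspa1b (1.36, adjusted p = 0.0305), whose reads may be shared with a near-identical copy and are uncertain. Hspa1b was not called under median-ratio scaling (adjusted p = 0.107). Of the genes named from these lists for PAN against control, Prdx4 and Fkbp10 stayed called with the library number and with the podocyte marker mean as a covariate, Bax and Cryab with the podocyte marker mean alone, and the others with neither. With the podocyte marker mean the log2 change was 0.49 for Nfe2l1 (adjusted p = 0.0563), 1.02 for Creb3l1 (0.0564), 1.03 for Nupr1 (0.181) and 0.40 for Atf5 (0.0899). With the library number the adjusted p of these 4 was 0.272, 0.0765, 0.245 and 0.309.

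In pioglitazone against control 8 of the 164 genes rose and 0 fell, beside 4.98% of all genes called, among them Prdx4, Qsox1, Creb3l1, Serpinh1, Fkbp7, Fkbp10 and P3h3. Qsox1 and Prdx4 encode enzymes of disulfide formation, and Serpinh1 (HSP47), Fkbp7, Fkbp10 and P3h3 belong to the collagen folding list. Under median-ratio scaling the calls of Serpinh1, Fkbp7 and P3h3 were kept and the others were lost. With the library number as a covariate those of Fkbp10, Creb3l1 and P3h3 were lost. With the podocyte marker mean these and the calls of Qsox1 and Fkbp7 were lost. Serpinh1 ranged from 339 to 514 CPM in control rats and from 666 to 806 CPM in pioglitazone rats. Its log2 change with pioglitazone was 0.79 (SE 0.18, adjusted p = 0.0235). P3h3 had a log2 change of 1.001 (adjusted p = 0.0454) and Fkbp7 one of 0.96 (adjusted p = 0.0422). In GQ-16 against control the smallest unadjusted p-values of the list were those of Fkbp7 (1.15, adjusted p = 0.0693) and Prdx4 (0.65, adjusted p = 0.0733).

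Between the injected groups the gene of the list with the smallest p was Ddit4, a target of ATF4 that restrains mTOR. It was at 23.3, 24.3, 26.0 and 26.7 CPM in control rats, 33.2, 32.5, 29.9 and 41.5 CPM in PAN rats, 39.4, 44.0, 35.6 and 25.7 CPM with pioglitazone and 23.1, 26.5, 26.1 and 23.2 CPM with GQ-16. On the deposited scale the 4 GQ-16 rats lay below all 4 PAN rats, as for 459 of 13222 genes. They lay in the range of the control rats or just below it, while pioglitazone 4 was the only rat of the other drug in that range. The log2 change was -0.45 (SE 0.15, unadjusted p = 0.0073, adjusted p = 0.421) in GQ-16 against PAN and -0.51 (SE 0.15, unadjusted p = 0.0031, adjusted p = 0.724) in GQ-16 against pioglitazone. Under median-ratio scaling GQ-16 2 lay above PAN 3, so that the GQ-16 and PAN rats overlapped. The log2 changes were then -0.32 (unadjusted p = 0.105) in the first comparison and -0.46 (unadjusted p = 0.0257) in the second. Uap1 (-0.45, adjusted p = 0.435) followed in the first of these and Vldlr (-0.25, adjusted p = 0.848) in the second. In pioglitazone against PAN the smallest p-values were those of Fkbp10 (-0.65, unadjusted p = 0.0231) and Alg5 (-0.33, unadjusted p = 0.0297), both with an adjusted p of 0.916.

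Genes outside the 10 that carry an ERSE or ERSE-II in the promoter were in the table in 19 cases, of which 6 rose and 0 fell in PAN, beside 22.3% of all genes called, with a median log2 change of 0.42 against 0.28 for all genes. Under median-ratio scaling 4 rose, beside 8.63% of all genes, with a median of 0.14 against -0.0029. The 6 were Dnajb11 (0.44, adjusted p = 0.0462), Nucb1 (0.76, adjusted p = 0.0211), Zfand2a (0.74, adjusted p = 0.0151), Ppm1l (0.86, adjusted p = 0.0169), Cdc45 (1.33, adjusted p = 0.0024) and Birc5 (1.27, adjusted p = 0.0069). Dnajb11 (0.14, adjusted p = 0.388) and Ppm1l (adjusted p = 0.0823) were not called under median-ratio scaling. In the fit with either covariate 2 of the 19 were called, Cdc45 and Birc5, beside 2.97% of all genes with the library number and 5.4% with the podocyte marker mean. Dnajb11 encodes a BiP partner and Nucb1 a calcium-binding protein of the Golgi, whereas Cdc45 and Birc5 encode proteins of DNA replication and cell division, at 1.23 to 3.09 CPM in control. Hyou1, the large HSP70-like chaperone of the ER, had a log2 change of 0.67 with an adjusted p of 0.122.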

How the data were processed

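The authors deposited 1 table of log2 CPM for 13222 genes in 16 libraries. HISAT2, featureCounts of Subread, limma and the build Rnor_6.0 are named in the submitters' processing notes, without versions. The deposited log2 values were log2 of (reads + 0.5) per 1000000, and undoing this gave whole reads for 100% of values (tolerance 0.05 read). No column of another sample was present. Groups came from the labels; replicate numbers only name rats, and nothing beyond the labels says that libraries are separate animals, so p-values measure the spread between these samples.

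Changes were computed as log2(CPM + 1) with limma 3.58.1 in R 4.3.3 (4 group means over 16 libraries, variance trend, two-sided, Benjamini-Hochberg over 13222 genes); genes with an adjusted p under 0.05 are called, and are said to have risen or fallen. The pseudocount understates changes of low genes. A level of 3 reads, 0.137 to 0.225 CPM, is the smallest taken as detected, which covers counting error only. The fit was first tested on simulated data. Summaries used Python 3.11.15 and pandas 2.3.3.

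The 10 genes and all lists were chosen with earlier results of these data known. List counts cover only the genes found in the expression table. Named genes of each list are the called ones with the 2 largest rises and falls in PAN against control and a mean of at least 5 CPM; in other comparisons, called genes, or else the 2 with the smallest p of the 164. Genes with an ERSE are named after their values were seen. Promoters are RefSeq, GRCr8. Alternatives were median-ratio scaling, a pseudocount of 0.1 CPM, a mean of at least 10 CPM, only the groups compared, the library number (25 or higher) or podocyte mean as a covariate, voom on recovered reads, libraries numbered 15 or lower, and leaving out each rat. Further alternatives, added once the data had been looked at, were median-ratio scaling together with the library number and median-ratio scaling without control 1; the ERSE list was added then too. Some genes that these rules select are not reported here.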

Additional observations from a re-analysis of the deposited data

Results flagged for a closer look

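Within each group, the highest and the lowest rat of each of the 10 stress genes was compared with the nearest other rat of the group. Among the 40 sets of 4 rats examined, chance would mark about 2, and 2 were marked. Hspa5 in the pioglitazone rat 3 was at a log2(CPM + 1) of 10.68 (1645 CPM), while the other 3 rats lay between 9.475 and 9.669, so that its gap to them took 0.839 of the group's range. Pdia4 in the PAN rat 1 was at 7.569 (189 CPM), while the others lay between 7.022 and 7.091, a gap of 0.873 of the range. Without the pioglitazone rat 3, the log2 change of Hspa5 in pioglitazone against PAN was -0.28, and with it -0.000044.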

How the results depend on the processing

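The count of the 10 stress genes called in PAN against control, 1 as reported, was 0 with median-ratio scaling, only the groups compared, the library number, the podocyte mean, voom, median-ratio scaling with the library number and median-ratio scaling without control 1, and 0 to 3 when rats were left out in turn. For the 164 further genes it was 77 as reported, and 28, 37, 3, 11, 27, 2 and 40 under these settings in that order, and 16 to 117 when rats were left out (16 without control 3, 17 without control 2, 18 without PAN 1, 33 without PAN 2, 117 without control 1). In pioglitazone against control the count of the 10, 1 as reported, was 0 under the same 7 settings and with libraries numbered 15 or lower, and 0 to 2 with rats left out. That of the 164, 8 as reported, was 3 with median-ratio scaling, 5 with only the groups compared, 4 with the podocyte mean, 1 with voom, 3 with median-ratio scaling and the library number and 4 with libraries numbered 15 or lower, and 0 to 47 with rats left out (0 without control 2, control 3 or pioglitazone 2, 47 without control 1). In GQ-16 against control the count of the 10, 0 as reported, was 1 with median-ratio scaling, alone, with the library number or without control 1, and 0 to 1 with rats left out, while that of the 164, 0 as reported, was 1, 1 and 23, and 0 to 46 with rats left out (46 without control 1). In PAN against control the log2 change turned negative for Hsp90b1 with the podocyte mean (-0.0100), for Herpud1 with median-ratio scaling (-0.0017) and the podocyte mean (-0.112), and for Dnajb9 with median-ratio scaling (-0.0720), the podocyte mean (-0.109), voom (-0.0770), median-ratio scaling with the library number (-0.102) and median-ratio scaling without control 1 (-0.0446). The cause of these shifts was not tested. Of all 13222 genes, 2943 were called in PAN against control as reported, 1141 with median-ratio scaling, 1580 with only the groups compared, 714 with the podocyte mean and 393 with the library number. A pseudocount of 0.1 CPM changed no call or direction of the 35 results compared, and a mean of at least 10 CPM none of 34. No paired analysis was possible because the labels give the groups no shared replicate numbers.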
